A study of Rattus norvegicus with 57 samples.

Results

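Wwox, Immp2l, Dpyd, Pde4d, Ccser1 and Fhit, 6 of the longest genes measured in rat kidney, were followed after a single dose of cisplatin. The genes were chosen by name as large genes, several of them selected on a lower signal on day 3, so all day 3 values are given as a description with no test. The Wwox difference at 3 mg/kg on day 5 was also known at the time of the choice and is treated in the same way. The 6 genes are among 11683 with a measured probe set (the group of short oligonucleotides that reports 1 transcript). They have 10 of the 31042 probe sets of the array, and 9 of these passed the filter on dim signals that left 21829. In the RefSeq annotation of assembly GRCr8, Pde4d spans 1514 kb, Fhit 1508 kb, Ccser1 1237 kb, Wwox 931 kb, Immp2l 900 kb and Dpyd 866 kb. The median measured gene spans 23.3 kb, and these 6 rank between the eighth and the thirty-first longest.

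Kidney RNA came from 57 male Han Wistar rats, 8 weeks old, each measured on its own Affymetrix Rat 230 2.0 array. Rats received saline alone (control) or cisplatin at 1 or 3 mg/kg in saline, once and into the peritoneum, and were killed 3, 5, 8 or 26 days later. Each of the 12 groups held 5 rats, except the day 26 controls with 4 and 1 mg/kg on day 5 with 3, whereas the design text gives 6 per group. The RNA was that of a whole piece of cortex-rich tissue, in which all 6 proximal tubule markers were measured and summed to signals between 11536 and 16443 in every rat.

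RNA polymerase reads a gene from end to end, so a gene of this size takes far longer to transcribe than a typical gene, nearly all of it intron. In human cells Wwox, Fhit, Immp2l, Dpyd and Ccser1 are known as genes of common fragile sites, regions that tend to break when DNA replication is disturbed. Their proteins share no pathway. Wwox encodes an oxidoreductase with WW domains, regarded as a tumour suppressor. Fhit encodes a histidine triad hydrolase that cleaves diadenosine triphosphate. Dpyd encodes dihydropyrimidine dehydrogenase, the rate-limiting enzyme of uracil and thymine breakdown. Immp2l encodes a subunit of the peptidase of the inner mitochondrial membrane, Pde4d a phosphodiesterase that hydrolyses cyclic AMP, and Ccser1 a coiled-coil protein rich in serine.

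Cisplatin is a platinum drug that enters proximal tubule cells and binds DNA, and its commonest crosslink joins neighbouring guanines on a strand. The start regions of Wwox, Immp2l and Dpyd, the genes furthest below control on day 3, are shown for their neighbouring guanines. Each is the RefSeq window of 300 bases from 250 before to 50 after the annotated start, read 5′ to 3′ on the gene's strand, which is the plus strand in GRCr8. Capitals mark neighbouring GG, or CC where the pair lies on the other strand, and pairs that overlap are each counted. The windows lie at chr19:59341134-59341433 for Wwox, chr6:63796979-63797278 for Immp2l and chr2:209293730-209294029 for Dpyd.
Wwox: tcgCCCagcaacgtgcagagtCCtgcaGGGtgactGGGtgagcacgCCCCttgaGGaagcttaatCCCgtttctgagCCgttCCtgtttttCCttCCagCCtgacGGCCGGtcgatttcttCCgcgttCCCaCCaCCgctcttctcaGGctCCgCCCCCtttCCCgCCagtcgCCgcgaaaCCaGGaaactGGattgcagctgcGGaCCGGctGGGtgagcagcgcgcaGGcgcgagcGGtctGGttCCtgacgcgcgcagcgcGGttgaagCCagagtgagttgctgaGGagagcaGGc
Immp2l: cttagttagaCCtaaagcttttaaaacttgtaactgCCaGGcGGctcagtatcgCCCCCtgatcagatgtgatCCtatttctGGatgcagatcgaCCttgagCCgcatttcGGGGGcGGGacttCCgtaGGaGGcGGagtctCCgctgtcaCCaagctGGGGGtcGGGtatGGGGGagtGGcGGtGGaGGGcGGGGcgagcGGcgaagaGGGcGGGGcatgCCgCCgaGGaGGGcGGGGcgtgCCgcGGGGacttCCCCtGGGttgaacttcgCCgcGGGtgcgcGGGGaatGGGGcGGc
Dpyd: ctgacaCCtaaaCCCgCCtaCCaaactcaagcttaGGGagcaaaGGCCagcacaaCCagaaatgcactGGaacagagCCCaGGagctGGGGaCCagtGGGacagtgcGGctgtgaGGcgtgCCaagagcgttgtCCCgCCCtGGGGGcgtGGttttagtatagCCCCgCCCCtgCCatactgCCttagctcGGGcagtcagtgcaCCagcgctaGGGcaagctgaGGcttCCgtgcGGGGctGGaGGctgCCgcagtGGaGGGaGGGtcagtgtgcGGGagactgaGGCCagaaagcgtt
Wwox has 52 such pairs, Immp2l 75 and Dpyd 62, against a median of 46 over 33469 start windows. Of all windows, 59.7% hold fewer pairs than that of Wwox, 89.7% fewer than that of Immp2l and 75.5% fewer than that of Dpyd. The single windows of Ccser1 and Fhit hold 27 and 28 pairs, and the 5 of Pde4d between 17 and 70. Nearly every window (99.99%) holds at least 1 pair. The windows are a minute part of genes of this length, and DNA damage was not measured.

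Signals are linear, and every array has the same trimmed mean of 99.99. Median signals per array ran from 20.3 to 26.2. The ratio of 3′ to 5′ signal of actin, which rises with RNA breakdown or incomplete labelling, ran from 4.47 to 8.58. On day 3 it was 5.89 ± 0.10 (SD, n = 5) at 3 mg/kg and 4.66 ± 0.25 (n = 5) in control, with no overlap, and on day 5 it was 5.42 ± 0.38 and 5.07 ± 0.39. Its part in the day 3 values was not tested.

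On day 3, the day that chose several of these genes, Immp2l, Dpyd and Wwox had the lowest signals relative to control, and the mean gap was smaller at the lower dose in each. Immp2l read 66.9, 67.8, 60.02, 87.6 and 58.8 in the controls. It read 24.2, 21.9, 30.6, 13.4 and 17.5 at 3 mg/kg. The difference was -1.17 ± 0.18 (SE) on the log2(signal + 16) scale, on which the added 16 shrinks the differences of dim genes. The mean signal itself was 3.17-fold lower, at 21.5 against 68.2, and all 5 rats lay below every control. At 1 mg/kg its signals ran from 35.8 to 58.9 with a median of 52.5, above all 3 mg/kg rats and, through its highest rat, just into the control range.

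Dpyd read 136, 88.3, 162, 148 and 103 in the day 3 controls. It read 61.4, 39.0, 54.5, 46.5 and 42.5 at 3 mg/kg, a difference of -1.13 ± 0.12. These groups did not overlap, and the 1 mg/kg rats, at 81.2 to 103, lay above all 3 mg/kg rats and reached into the control range. Wwox read 48.3, 40.1, 52.1, 49.4 and 49.5 in control through its brightest probe set. It read 27.7, 23.2, 19.2, 27.8 and 33.3 at 1 mg/kg, a difference of -0.60 ± 0.11. The rats given 3 mg/kg read 23.4, 12.9, 26.8, 18.3 and 18.8, a difference of -0.84 ± 0.11. Both doses lay below every control for Wwox but overlapped each other, and 3 mg/kg differed from 1 mg/kg by only -0.23 ± 0.11.

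Fhit, Pde4d and Ccser1 were closer to control on day 3. Fhit ran from 53.9 to 92.2 at 3 mg/kg and from 95.1 to 118 in control, a difference of -0.51 ± 0.10. The brightest Pde4d probe set ran from 116 to 164 against 171 to 201, a difference of -0.45 ± 0.09. Ccser1 ran from 24.96 to 47.2 against 39.7 to 63.9, a difference of -0.40 ± 0.11, and its groups overlapped. At 3 mg/kg every treated rat was lower than every control for 5 of 9 probe sets, where 4.46% of all probe sets had that pattern. At 1 mg/kg this held for 3 of 9, those of Wwox, Fhit and Pde4d, against 0.669% of all. Between the doses it held for 2 of 9, Immp2l and Dpyd, against 2.72%. Nothing is read from these shares, since day 3 chose genes. Of 11 cell type marker lists, 2 did not overlap between 3 mg/kg and control on day 3. Erythroid markers, 2 of 3 measured, summed to 506 to 1080 against 1627 to 2770, and distal tubule markers, 2 of 3 measured, to 2806 to 3063 against 3132 to 3903. Their part was not tested.

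**Figure D1:**
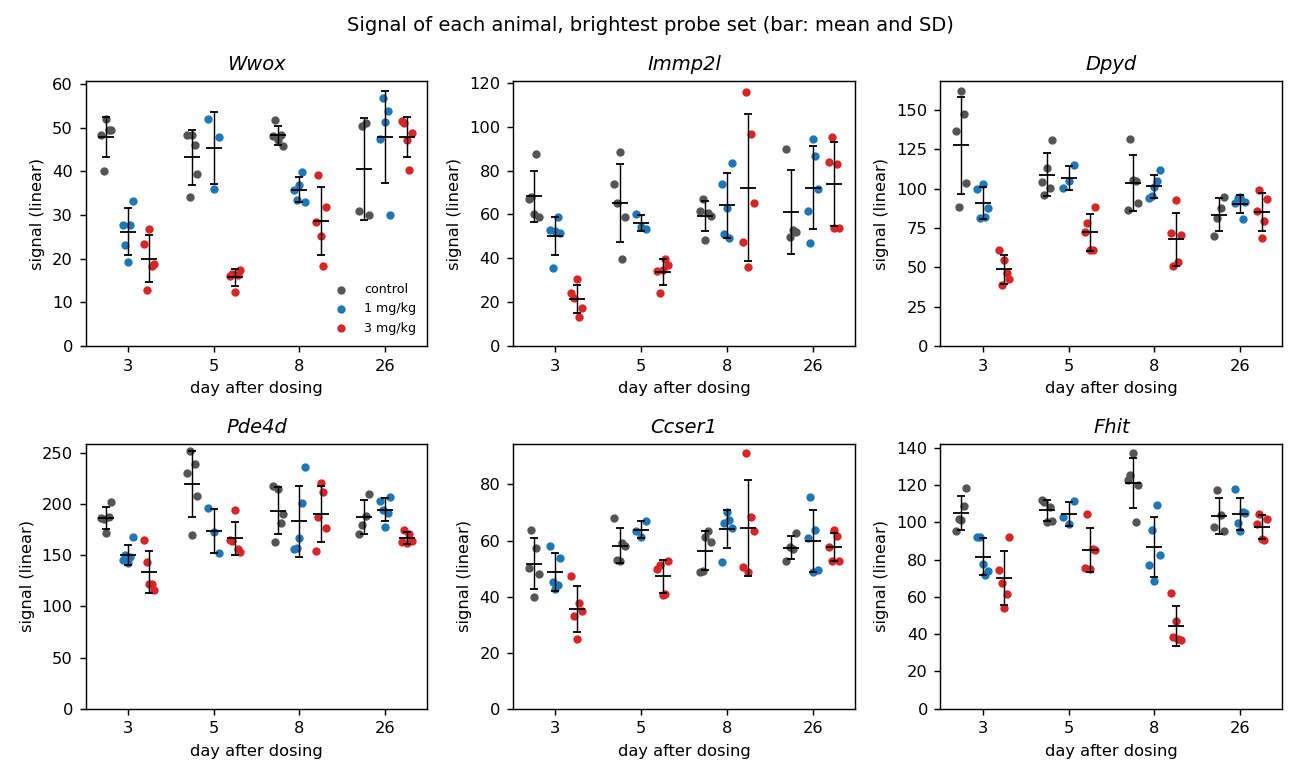
Linear signal of each rat for the brightest probe set of the 6 genes, by day after dosing (evenly spaced, not to scale) and dose, with group mean and SD. Wwox at 3 mg/kg lies between 12.4 and 17.4 on day 5, below all controls, and Fhit at 3 mg/kg is lowest on day 8, between 36.9 and 61.9.

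On day 5 the genes with the lowest day 3 signals were still below control at 3 mg/kg, and Wwox was at its lowest. Differences from day 5 on were tested with limma over all 21829 probe sets with Benjamini-Hochberg adjustment at 0.05. Beside Wwox, which was known, Immp2l, Dpyd and Pde4d fell. These are 3 of the 7 probe sets of the other 5 genes, none of the 7 rose, and 3.11% of all probe sets fell. With the known Wwox value, from which nothing is read, the count was 4 of 9. The median change over the 9, that value among them, was -0.28, against -0.01 over all probe sets.

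Wwox read 48.4, 34.0, 48.4, 46.0 and 39.4 in the day 5 controls and 52.1, 36.0 and 48.0 at 1 mg/kg. The 3 mg/kg rats read 16.1, 16.5, 12.4, 16.2 and 17.4. The 3 mg/kg rats lay far below both other groups, which overlapped. The difference from control was -0.90 ± 0.11 (SE) on the log2(signal + 16) scale, and the mean signal was 2.75-fold lower, at 15.7 against 43.3. It depends on the offset, at -1.46 with none and -0.43 with 64. Against 1 mg/kg the difference was -0.94 ± 0.13. No test is given for these Wwox values.

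Immp2l read 73.8, 65.0, 88.3, 39.8 and 59.0 in control and 34.2, 24.1, 34.6, 39.8 and 37.1 at 3 mg/kg. All treated rats lay below all controls, the nearest pair by 0.06 signal units or less. The fall was 0.68 ± 0.18 on the log2 scale (adjusted p = 0.0131), and the mean signal was 1.92-fold lower. Of the 21829 probe sets, 42 had a more negative change. Without control replicate 3 it no longer passed (-0.58, adjusted p = 0.0587). Dpyd read 104, 96.3, 113, 100 and 131 in control and 72.6, 78.3, 61.3, 60.9 and 88.2 at 3 mg/kg. It fell by 0.505 ± 0.12 with no overlap (adjusted p = 0.00474). Against 1 mg/kg, at 100.7, 104.6 and 115.4, Dpyd was lower (-0.49 ± 0.14, adjusted p = 0.0379). This difference between doses did not pass when any 1 mg/kg rat was left out, nor without 3 mg/kg replicate 1, 3 or 4 (adjusted p from 0.0780 to 0.161). It also failed with the actin ratio as a covariate (adjusted p = 0.0966) and with these groups fitted alone (0.0644), and the actin ratios of the groups did not overlap, at 5.09 to 6.06 and 4.54 to 4.76.

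Pde4d read 230, 251, 170, 239 and 207 in control and 164, 164, 194, 156 and 153 at 3 mg/kg through its brightest probe set. It fell by 0.36 ± 0.09 (adjusted p = 0.0124) with groups that overlapped, and without control replicate 2 it did not pass (-0.31, adjusted p = 0.0515). From 1 mg/kg it differed by only -0.055 ± 0.11 (limma, adjusted p = 0.855). The mean of the day 5 controls, 219.5, was above those of days 3, 8 and 26, at 186.2, 193.3 and 186.9. Fhit differed by -0.28 ± 0.10 (adjusted p = 0.0716), which passed when 3 mg/kg replicate 2 was left out (-0.35, adjusted p = 0.0308). Ccser1 differed by -0.23 ± 0.11 (adjusted p = 0.192), although its 3 mg/kg rats, at 40.7 to 52.8, all lay below the controls, at 52.9 to 67.9.

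At 1 mg/kg none of the 9 probe sets passed on day 5, and 0% of all probe sets fell. Over all probe sets limma called 2, and 766 had an unadjusted p under 0.05. With 3 rats in that group, Wwox differed from control by 0.05 ± 0.13, Dpyd by -0.02 ± 0.14 and Pde4d by -0.31 ± 0.11. Between 3 and 1 mg/kg, Dpyd was the 1 of 7 probe sets of the other 5 genes called lower, against 1.22% of all. With Wwox, from which nothing is read on this day, the count was 2 of 9. On day 5, 3 marker lists did not overlap between 3 mg/kg and control. The 4 injured tubule markers summed to 2745 to 8237 against 583 to 1122, and 2 of 3 distal tubule markers to 2724 to 3357 against 3500 to 4090. The 4 markers of the thick ascending limb, a salt-reabsorbing segment, summed to 6091 to 7004 against 7827 to 8593, and the part of these markers in the falls was not tested.

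**Figure D2:**
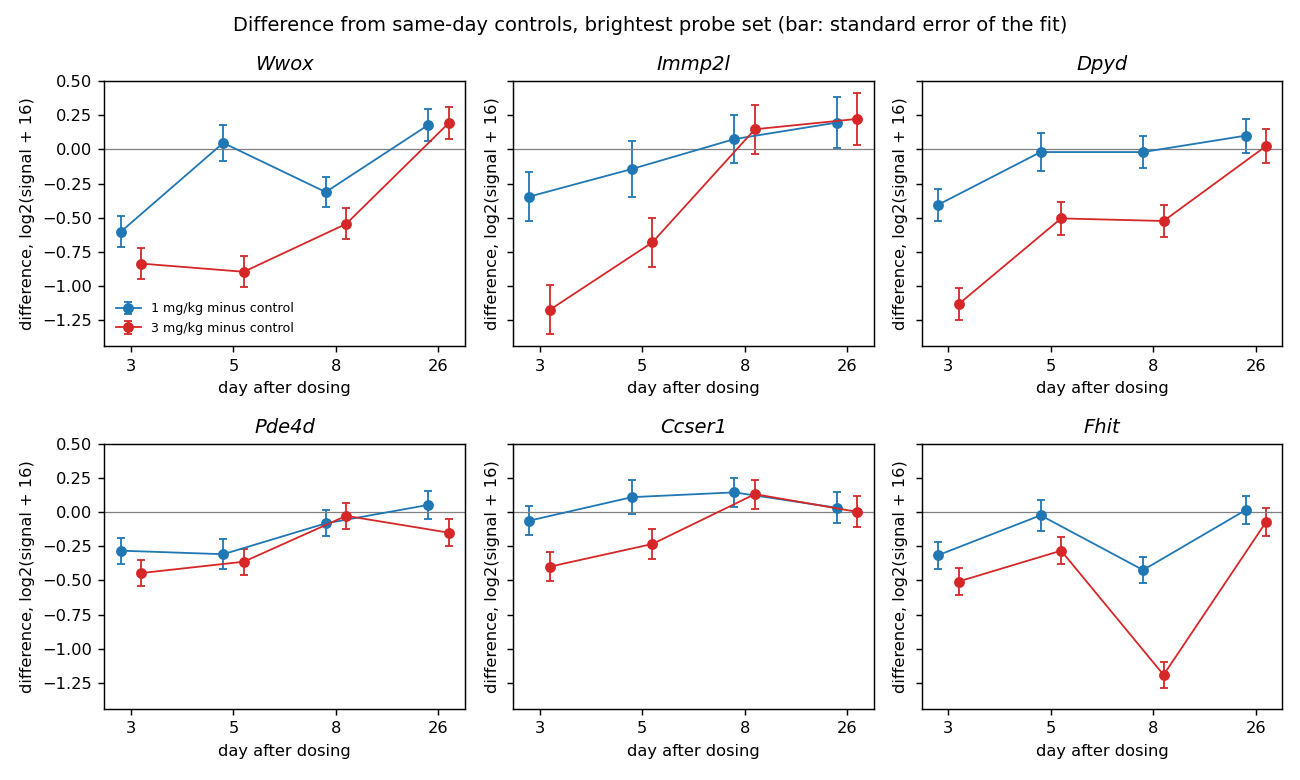
Difference from same-day controls on the log2(signal + 16) scale for the brightest probe set of each gene, with the standard error of the fit, at 1 and 3 mg/kg and by day (evenly spaced). Immp2l goes from -1.17 on day 3 to 0.15 on day 8 at 3 mg/kg, whereas Fhit reaches -1.19 on day 8, and all 6 lie between -0.15 and 0.22 on day 26.

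By day 8 the 6 genes had parted. Fhit reached its lowest level, Wwox and Dpyd were still reduced, and Immp2l, Ccser1 and Pde4d were not different by the test. Fhit, Wwox and Dpyd make 3 of 9 probe sets that fell at 3 mg/kg, none rose, and 13.1% of all probe sets fell on this day. Fhit read 123, 125, 137, 100 and 120 in control and 77.1, 95.8, 68.4, 109 and 82.7 at 1 mg/kg. In the 3 mg/kg rats it read 61.9, 38.4, 47.1, 37.6 and 36.9, below every rat of the other groups. It fell by 1.19 ± 0.10 against control (adjusted p = 3.82e-13), with a mean signal 2.72-fold lower, and by 0.77 ± 0.10 against 1 mg/kg (adjusted p = 8.04e-08).

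Fhit at 1 mg/kg fell by 0.42 ± 0.10 (adjusted p = 0.0291), with overlap through a single 1 mg/kg rat, at 109. It was 1 of 9 probe sets called lower at this dose, against 0.055% of all. The call was lost without control replicate 1, 2 or 3 or 1 mg/kg replicate 1, 3 or 5 (adjusted p from 0.0524 to 0.217). It was also lost with the compared groups fitted alone (limma, adjusted p = 0.181). The 4 injured tubule markers were the 1 marker list without overlap between 1 mg/kg and control on day 8, at 1678 to 7897 against 622 to 1127, and their part in the Fhit value was not tested. Wwox at 1 mg/kg read 35.9, 33.4, 36.9, 39.99 and 32.9, and the controls read 48.1, 51.8, 47.2, 48.4 and 45.9. All treated rats were lower, yet the difference of -0.31 ± 0.11 did not pass (adjusted p = 0.227).

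Wwox at 3 mg/kg on day 8 read 28.4, 39.2, 25.2, 18.2 and 32.0. It fell by 0.55 ± 0.11 with no overlap with control (adjusted p = 1.72e-04), and differed from 1 mg/kg by -0.23 ± 0.11 (adjusted p = 0.156). Dpyd read 71.9, 51.1, 92.7, 53.7 and 70.4, against 86.4, 132, 106, 105 and 90.7 in control. It fell by 0.52 ± 0.12 (adjusted p = 4.89e-04) and was lower than at 1 mg/kg, where it read 94.4 to 112 (-0.505 ± 0.12, adjusted p = 0.00131). Fhit and Dpyd were the 2 of 9 probe sets called lower between the doses, against 9.28% of all.

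Immp2l was the most uneven gene on day 8. It read 47.3, 116, 36.2, 96.9 and 65.0 at 3 mg/kg against 48.1 to 66.9 in control, a difference of 0.15 ± 0.18 (adjusted p = 0.561). Replicates 2 and 4 were above all controls and replicates 1 and 3 below them. Ccser1 had the same highest rats, with 50.6, 91.2, 48.8, 68.3 and 63.3, and differed by 0.13 ± 0.11 (adjusted p = 0.360). In the same 5 rats the 4 markers of the thick ascending limb summed to 2722, 84.5, 3467, 440 and 177, against 6556 to 8172 in control. Replicates 1 and 3 kept the most thick ascending limb signal and had the lowest Immp2l and Ccser1. The relation was read off after the values were seen, and with 5 rats it was not tested.

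In all, 6 marker lists did not overlap between 3 mg/kg and control on day 8. Distal tubule markers, 2 of 3 measured, summed to 614 to 2065 against 3120 to 3689 in control. Injured tubule markers, 4 of 4, summed to 5759 to 11365 against 622 to 1127. Fibroblast markers, 3 of 3, summed to 1403 to 1977 against 612 to 947, and macrophage markers, 4 of 5, to 273 to 442 against 192 to 250. Endothelial markers, 3 of 4, summed to 431 to 493.3 against 559 to 643. Proximal tubule markers overlapped, at 12119 to 13950 and 11536 to 13609. In such homogenates, fewer cells of a type and less RNA per cell cannot be told apart, and the part of these markers in the Fhit, Wwox and Dpyd values was not tested.

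On day 26 none of the 9 probe sets passed in any comparison. At 3 mg/kg 0.545% of all probe sets fell, at 1 mg/kg 0% and between the doses 0.0458%, and over all probe sets limma called 319, 0 and 18, with 3700, 1519 and 2240 at an unadjusted p under 0.05. Differences of the 9 probe sets ran from -0.28 to 0.22 over the 3 comparisons, with adjusted p of 0.316 or more. Wwox read 51.7, 51.0, 47.3, 40.2 and 48.8 at 3 mg/kg. Its controls fell into a high and a low pair, with 31.0, 50.4, 51.1 and 30.1. Of 11 marker lists, 1 did not overlap between 3 mg/kg and control on day 26. Macrophage markers, 4 of 5 measured, summed to 214.6 to 323.5 against 180.7 to 204.7, and their part was not tested. At 1 mg/kg every list overlapped with control.

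The change of the 3 mg/kg difference between days was tested as an interaction. From day 5 to day 8, Immp2l rose relative to control by 0.83 ± 0.25 (adjusted p = 0.0223), 1 of 9 probe sets where 7.42% of all rose. Fhit fell by 0.91 ± 0.14 (adjusted p = 2.37e-05), 1 of 9 where 5.81% fell. The Immp2l call was lost without control day 5 replicate 3, 3 mg/kg day 5 replicate 2, or 3 mg/kg day 8 replicate 2 or 4 (adjusted p from 0.0519 to 0.0618). It was also lost with the compared groups fitted alone (limma, adjusted p = 0.0731). Without 3 mg/kg day 8 replicate 1, Pde4d (0.40, adjusted p = 0.0317) and Ccser1 (0.43, adjusted p = 0.0471) also rose, which made 4. Pde4d rose too without control day 5 replicate 3 (0.42, adjusted p = 0.0290), and Ccser1 without 3 mg/kg day 8 replicate 3 (0.44, adjusted p = 0.0381). Dpyd differed between these days by -0.02 ± 0.17 (adjusted p = 0.958).

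From day 8 to day 26, Fhit rose relative to control by 1.12 ± 0.14 (adjusted p = 6.60e-07), Wwox by 0.74 ± 0.17 (adjusted p = 0.00158) and Dpyd by 0.55 ± 0.17 (adjusted p = 0.0276). These were 3 of 9 probe sets, where 5.73% of all rose and 5.62% fell. The Dpyd call was lost without any of 6 rats (adjusted p from 0.0517 to 0.0789), namely control day 8 replicate 2, control day 26 replicate 1, 3 mg/kg day 8 replicates 2 and 4, and 3 mg/kg day 26 replicates 2 and 5. It was also lost with the compared groups fitted alone (limma, adjusted p = 0.0925).

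The size of these differences depends on the offset. The 15 called differences, leaving out Wwox on day 5, were all called in the same direction with no offset and with an offset of 64. Immp2l on day 5 was -0.91 and -0.39 with these, Fhit on day 8 was -1.47 and -0.77, and Wwox on day 8 was -0.80 and -0.28. For the change from day 5 to day 8, Immp2l gave 1.07 and 0.50 and Fhit -1.14 and -0.58, and for that from day 8 to day 26 Fhit gave 1.38 and 0.72 and Wwox 1.08 and 0.38. Fhit between the doses on day 8 gave -0.97 and -0.47, and Dpyd -0.61 and -0.34.

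Probe sets of the same gene did not always move alike. The second Wwox probe set read 5.62 to 26.9 over all rats. It differed from control at 3 mg/kg by -0.02 on day 3, 0.04 on day 5 and -0.01 on day 8, where the brightest differed by -0.84, -0.90 and -0.55. The third Wwox probe set, at 1.06 to 8.10, was never above the filter. The other Pde4d probe sets, at mean signals of 8.62 to 26.6 per group, differed on day 5 by -0.09 (adjusted p = 0.696) and -0.08 (adjusted p = 0.788). On day 8 they differed at 3 mg/kg by -0.19 (adjusted p = 0.160) and 0.02 (adjusted p = 0.929). The first of these passed with quantile normalization (-0.28, adjusted p = 0.0403). Which Wwox and Pde4d transcripts each probe set reads is not given in the sources used here.

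Genes that work beside these 6 vary in length. Those measured are shorter than the 6, but many are longer than the median measured gene. Among the phosphodiesterases and the enzymes of pyrimidine breakdown, called changes at 3 mg/kg went in both directions. Among the histidine triad hydrolases, the mitochondrial proteases and the relatives and partners of Wwox, all called changes were falls. Over genes, represented by their brightest probe set, 3.1% fell and 4.81% rose at 3 mg/kg on day 5, and 15.3% fell and 20.6% rose on day 8. Of the cyclic AMP phosphodiesterases, 6 of 8 were measured. On day 5 Pde3b fell (-0.39 ± 0.10, adjusted p = 0.0116) and none rose, and on day 8 Pde4b (0.38 ± 0.12) and Pde4c (0.46 ± 0.14) rose and none fell. Pde4b, a close relative of Pde4d, is itself a gene of 569.3 kb, and Pde3b spans 163.3 kb.

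Of the enzymes of pyrimidine breakdown around Dpyd, 6 of 8 were measured. The uridine phosphorylase Upp1 rose on day 5 (0.44 ± 0.11) and day 8 (0.79 ± 0.11, adjusted p = 2.80e-07). The aminotransferases Agxt2 (-0.38 ± 0.08) and Abat (-0.50 ± 0.09) fell on day 8. Of the histidine triad hydrolases related to Fhit, 5 of 6 were measured, of which Hint3 fell on day 5 (-0.30 ± 0.08) and day 8 (-0.21 ± 0.08), and the DNA-end repair enzyme Aptx on day 8 (-0.29 ± 0.08). Of 8 mitochondrial inner membrane and import proteases, none passed on day 5, and on day 8 the partner subunit Immp1l (-0.24 ± 0.06) and the protease Afg3l2 (-0.23 ± 0.08) fell. On day 26 Yme1l1 fell (-0.22 ± 0.06, adjusted p = 0.0486). Of 8 relatives and partners of Wwox, 4 were measured, of which the short-chain dehydrogenase Dhrs3 fell on day 8 (-0.37 ± 0.09) and none passed on day 5.

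Other long genes were compared without the 6. Genes were grouped by span, with 2967 under 10 kb, 3818 from 10 to 30 kb, 3291 from 30 to 100 kb, 1283 from 100 to 300 kb and 282 of at least 300 kb. At 3 mg/kg on day 5 the median log2 difference went from 0.04 in the shortest class through 0.01, -0.02 and -0.04 to -0.07 in the longest. The share of genes that fell was 1.62% in the shortest class, 6.00% from 100 to 300 kb and 6.03% in the longest. The share that rose was 7.65%, 1.95% and 2.13%, so the last 2 classes were alike. On day 8 the medians went from 0.06 to -0.04, with 13.9% and 26.2% of genes falling and 23.3% and 13.5% rising. The order was the same on day 3, from 0.07 to -0.06 at 3 mg/kg and from 0.01 to -0.06 at 1 mg/kg.

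The lower dose showed no such order on day 5, with medians of -0.01 in the shortest and 0.00 in the longest class, and a shallow one on day 8, from 0.02 to 0.01. On day 26, against the same 4 controls, the order was turned, from 0.02 to 0.07 at 3 mg/kg and from -0.01 to 0.05 at 1 mg/kg. The longest genes were also dimmer, with a median level of 6.20 on the log2(signal + 16) scale against 6.83 for all genes. The spread within every class was wide next to these shifts, as in the longest class on day 5, whose quartiles were -0.18 and 0.03.

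**Figure D3:**
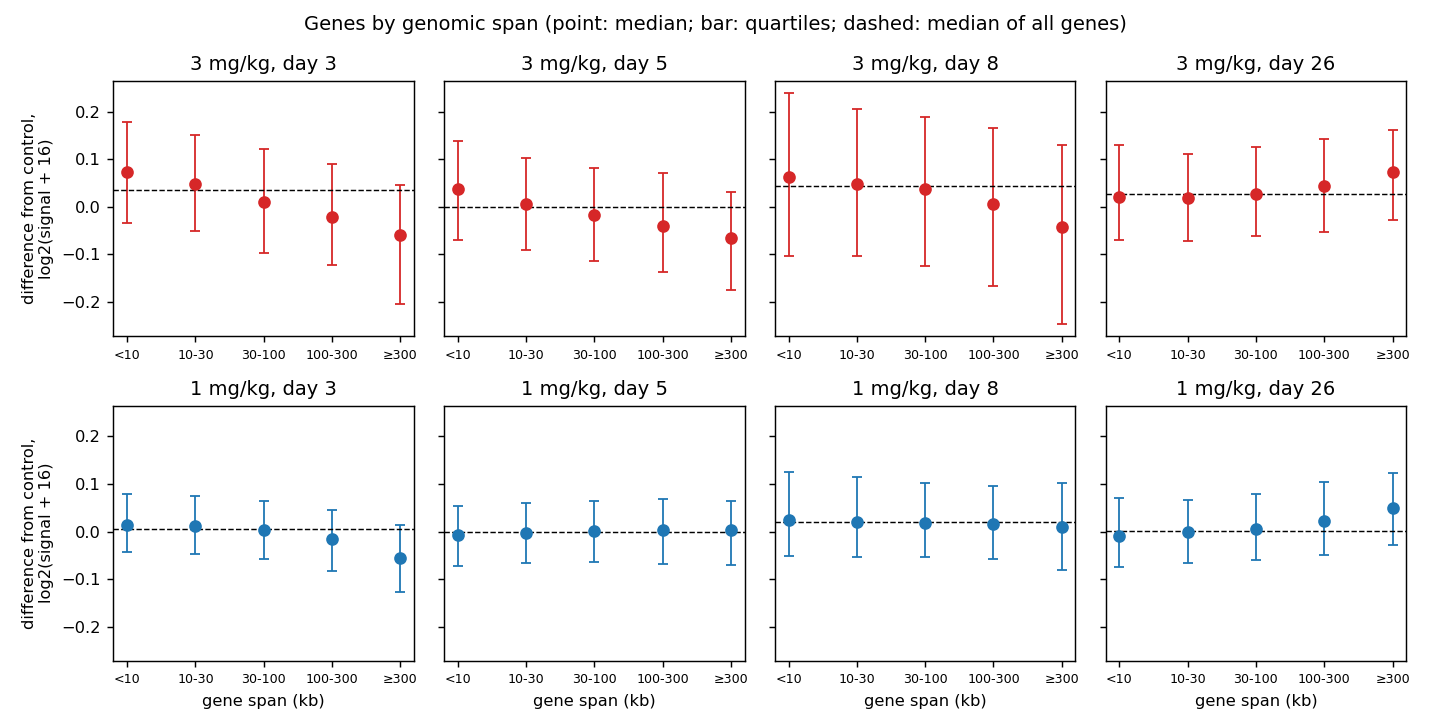
Median (point) and quartiles (bar) of the log2(signal + 16) difference from control over genes in 5 classes of genomic span in kb, for each dose and day, without the 6 genes; the dashed line is the median of all genes. At 3 mg/kg the medians step down with span on days 3, 5 and 8, and on day 26 the longest class is highest, at 0.07.

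The shift was then reduced to 1 value per rat, the long-gene level. This is the median, over the 282 genes of at least 300 kb, of the log2 value less its mean over arrays, minus the same median over all 11641 genes with a known span. On day 5 it was -0.033 ± 0.023 (SD, n = 5) at 3 mg/kg, 0.041 ± 0.003 (n = 3) at 1 mg/kg and 0.045 ± 0.013 (n = 5) in control. The 3 mg/kg rats were all lower than the controls, with a mean difference of -0.078 (exact two-sided permutation test, p = 0.00794, the smallest this design allows; adjusted over 9 comparisons, 0.0238). With the 101 genes of at least 500 kb alone the difference was -0.076 and did not pass (adjusted p = 0.0714). They were also all lower than the 1 mg/kg rats (-0.074, exact permutation p = 0.0179, the smallest possible with 3 rats; adjusted 0.0402), which did not pass with genes of at least 500 kb (-0.072, adjusted p = 0.107). That call was lost without any single rat, as fewer rats raise the smallest possible p. The actin ratios of the 3 and 1 mg/kg groups did not overlap on day 5, at 5.09 to 6.06 and 4.54 to 4.76. Their part in the long-gene level was not tested.

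On day 8 the long-gene level was -0.059 ± 0.057 (SD, n = 5) at 3 mg/kg and 0.046 ± 0.016 (n = 5) in control, a difference of -0.105 with no overlap (exact permutation, adjusted p = 0.0238). It was also lower than at 1 mg/kg (-0.087, exact permutation, adjusted p = 0.0238). With genes of at least 500 kb neither passed (-0.081 and -0.071, adjusted p = 0.107 and 0.119). The 5 rats at 3 mg/kg had levels of -0.016, -0.14, 0.004, -0.08 and -0.065. Replicates 1 and 3, which kept the most thick ascending limb signal, had the highest. At 1 mg/kg the difference from control was -0.004 on day 5 and -0.018 on day 8 (exact permutation, adjusted p = 0.743 and 0.0918), and the latter passed without control replicate 3 (-0.023, adjusted p = 0.0476).

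On day 26 the difference from control had the other sign, with controls lower than on the earlier days. The 4 controls ran from -0.008 to 0.007, whereas the controls of days 3, 5 and 8 had means of 0.028, 0.045 and 0.046. The treated means on day 26 were 0.032 at 3 mg/kg and 0.031 at 1 mg/kg. The doses differed by 0.001 (exact permutation, adjusted p = 0.992), and both were compared with the same 4 controls. The long-gene level differed from control by 0.032 at 3 mg/kg (exact permutation, adjusted p = 0.0918), which passed without 3 mg/kg replicate 1 (0.043, adjusted p = 0.0429). At 1 mg/kg all 5 rats were above all 4 controls, by 0.031 in the mean (exact permutation, adjusted p = 0.0429), a call lost without any single rat. On day 3, with no test, the differences were -0.11 at 3 mg/kg and -0.073 at 1 mg/kg, with no overlap with control at either dose.

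**Figure D4:**
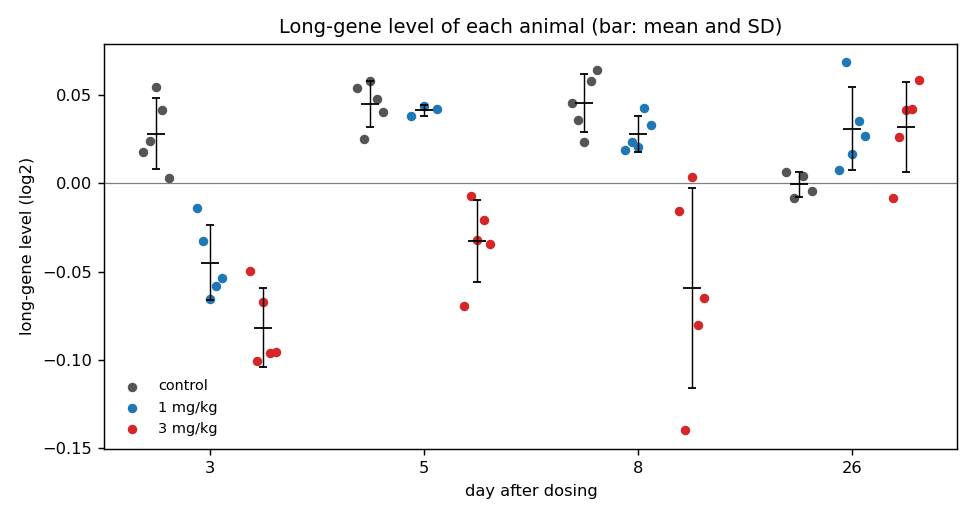
Long-gene level of each rat (log2 units, median over 282 genes of at least 300 kb less the median over all genes, without the 6 genes), by day (evenly spaced) and dose, with mean and SD. The 3 mg/kg rats lie below all controls on days 3, 5 and 8, with mean differences of -0.11, -0.078 and -0.105, and overlap them on day 26.

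Among the 282 genes, 17 fell and 6 rose at 3 mg/kg on day 5. Of the 6 largest falls, Gpc6 (997.6 kb, -0.51 ± 0.10) and Smyd3 (556.9 kb, -0.43 ± 0.09), a glypican and a methyltransferase, were also below all controls on day 3, with differences of -0.68 and -0.56, and differed by -0.22 (adjusted p = 0.104) and -0.02 (adjusted p = 0.919) on day 8. Plcl1 had the largest fall (-0.64 ± 0.12) but differed by 0.24 on day 3, and was still lower on day 8 (-0.48, adjusted p = 0.00149). St6galnac3 fell on day 5 (-0.43) and day 8 (-0.44, adjusted p = 0.00133), whereas Glcci1 (-0.56) and Wdpcp (-0.46) did not pass on day 8 (-0.17 and -0.11). On day 3 these 3 genes differed by -0.29, -0.08 and -0.15. Not all long genes fell. Nrg1, a growth factor gene of 1053.4 kb, rose by 0.89 ± 0.20 on day 5 (adjusted p = 0.00227) and by 1.87 ± 0.20 on day 8. Its mean signal was 184.3 against 33.7 in control on day 8. Kcnma1 (0.42) and Vwa8 (0.33) were the next largest rises on day 5. Smyd3 and Kcnma1 were dim on day 5, at mean signals of 14.7 against 25.5 and 25.8 against 15.3 in control.

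On day 8, 74 of the 282 fell and 38 rose. The largest falls were in the sodium-calcium exchanger Slc8a1 (-2.03 ± 0.22), Pcdh9 (-1.69), Slc2a13 (-1.14), Phactr1 (-1.12), Foxp2 (-1.04) and Slit3 (-1.03). Mean signals at 3 mg/kg were dim for Pcdh9 (14.4 against 89.7 in control), Foxp2 (2.6 against 25.1) and Slit3 (6.4 against 29.0). None of the 6 largest falls had passed on day 5. Every 3 mg/kg rat was then already below every control for Slc8a1 (-0.61), Slc2a13 (-0.375) and Slit3 (-0.37). That pattern held for 3.63% of all probe sets. Pcdh9 (0.05), Phactr1 (-0.155) and Foxp2 (-0.155) overlapped with control on day 5. On day 3, with no test, the pattern held for Slc8a1 (-0.32) and Slc2a13 (-0.45), against 4.46% of all. After Nrg1, Arhgap15 (1.09) and Adgrv1 (1.02) rose most on day 8. In a list of 60 large genes, 33 were measured, of which 2 fell and none rose on day 5, Gpc6 and Smyd3, and 6 fell and 5 rose on day 8. Of all genes, 3.1% fell and 4.81% rose on day 5 and 15.3% fell and 20.6% rose on day 8, so the share of the list that fell on day 8 lay near that of all genes.

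The courses of the 6 genes over the 12 group means were compared as a description, since day 3 is among them and all share controls. Immp2l and Ccser1 were most alike (Pearson's r = 0.86 over 12 group means), then Immp2l and Wwox (0.80), and Ccser1 and Fhit least (0.17). Of all other measured genes, those most like Immp2l were Smyd3 (0.97), Slc39a11 (0.96) and Dock1 (0.94), which span 556.9, 421.1 and 516.6 kb, and then Usf3 (0.90, 59.2 kb). Those most like Fhit were Galnt11 (0.97), Sfrp2 (0.96), Ntn1 (0.96) and Nt5e (0.95), which span 33.5, 7.5, 198.7 and 44.7 kb. The course of Wwox was nearest to Tgfbr1 (0.93), LOC102553524 (0.92), Npas2 (0.91) and Cd99l2 (0.90). That of Dpyd was nearest to Myo1d, Zpbp, Rnf111 and Zcchc14 (0.89 to 0.90). For Pde4d the nearest were Pip5k1b, Zfp410, Dhx32 and Rdh10 (0.89 to 0.91), and for Ccser1 they were Copb1, Washc4, Aff4 and Pip5k1b (0.92 to 0.94).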

How the data were processed

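RNA of 57 rat kidneys was measured on 1 array each. The deposited values are linear intensity values, 1 per probe set, which the authors computed using MAS5 (named without a version or background step in the submitters' processing notes). Groups, doses and days came from the labels. The 57 control probe sets were left out, and probe sets above the 40th percentile of their array on at least 3 arrays were kept. Signals were taken as log2(signal + 16), so fold changes of dim genes are understated. limma 3.58.1 in R 4.3.3 fitted a mean for each of 12 groups over all arrays with an intensity trend, two-sided, with Benjamini-Hochberg adjustment over 21829 probe sets at 0.05. The long-gene level was compared by exact permutation of rats. The labels call the replicates biological, and each array is 1 rat. The number of arrays limits the precision.

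The 6 genes and the gene lists were chosen with earlier results of these data known, among them the Wwox difference at 3 mg/kg on day 5. Gene symbols are those of the platform annotation after an update by Entrez number, and gene spans (99.7% of genes) and start windows from RefSeq, GRCr8. The files name no genome build, so no gene positions other than the windows are given. The genes named besides the 6 were the 6 largest falls and 3 largest rises past the threshold among genes of at least 300 kb at 3 mg/kg on days 5 and 8, up to 3 per list, and the 4 nearest to each gene by Pearson's r. On simulated data for 3 mg/kg on day 5, with 21829 probe sets, 79% of changes of 0.5 and 100% of changes of 1 were recovered, for 1 mg/kg on day 5, 63% and 99%, and for 3 mg/kg on day 8, 77% and 99%. Of the calls made in these 3 runs, 5.29%, 4.71% and 6.88% were false. These rates describe the simulated data alone. In the measured data the spread could differ between groups. For Immp2l on day 8 the SD on the log2 scale was 0.557 at 3 mg/kg and 0.137 in control. With the compared groups fitted alone, 3 mg/kg on day 8 gave 3977 calls, against 6931 in the main fit. The runs therefore do not give the share of false calls in the measured data. Alternatives were the offset, the filter, quantile normalization, 1 probe set per gene, other span limits and each rat left out. The limma fits of probe sets were also run with the actin ratio as a covariate, the replicate number as a block and the compared groups alone. Background correction and a slide block were not tried, since no probe-level or slide data were used here.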

Additional observations from a re-analysis of the deposited data

Results flagged for a closer look

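Of 99 groups of 4 or 5 rats examined for the 9 probe sets, 7 held a rat far from the others, where chance gives about 1 in 20. Wwox (brightest probe set) read 12.4 in 3 mg/kg day 5 replicate 3. Immp2l read 89.6 in control day 26 replicate 1 and 35.8 in 1 mg/kg day 3 replicate 2. Dpyd read 80.6 in 1 mg/kg day 26 replicate 4. Among the Pde4d probe sets, the brightest read 194 in 3 mg/kg day 5 replicate 3, the next 22.9 in 3 mg/kg day 3 replicate 3, and the dimmest 1.68 in 1 mg/kg day 8 replicate 3.

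The 3 mg/kg effect differed between days by limma's interaction test in 5 cases. From day 5 to day 8 Immp2l changed by 0.83 and Fhit by -0.91 on the log2 scale. From day 8 to day 26 Wwox changed by 0.74, Dpyd by 0.55 and Fhit by 1.12.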

How the results depend on the processing

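For counts of the 9 probe sets called, 202 of 222 alternatives stayed within 1.5 times the count given, and 20 moved. The counts for 3 mg/kg on day 5 include the known Wwox value, from which nothing is read. Between 3 and 1 mg/kg on day 5, the count of 2 became 1 with the actin ratio as a covariate and 1 with the compared groups alone, in both through Dpyd. For 1 mg/kg on day 8 it became 0, and for the change from day 5 to day 8 it became 1, with the compared groups alone. With each rat left out in turn these 3 counts ran from 1 to 2, from 0 to 1 and from 1 to 4. Single probe sets kept their call in 1897 of 1932 alternatives, with 29 lost, 6 gained and 0 reversed. The main fit did not pair rats by replicate number. Deviations from the group means were correlated between rats of equal number, by 0.102 in the mean for 3 mg/kg against control on day 5. From day 5 on this mean ran from -0.09 (3 mg/kg against control, day 26) to 0.106 (1 mg/kg against control, day 5). With the replicate block the count for 3 mg/kg on day 5 was 4, with 1495 calls over all probe sets against 1458 without the block. Over all probe sets, the compared groups alone gave 3977 calls against 6931 for 3 mg/kg on day 8, 125 against 619 for 3 against 1 mg/kg on day 5 and 641 against 3991 on day 8.

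The long-gene level kept its call in 117 of 147 alternatives. With a limit of 500 kb, which left 101 genes, day 5 gave -0.076 against control (adjusted p = 0.0714) and -0.072 against 1 mg/kg (0.107), day 8 gave -0.081 (0.107) and -0.071 (0.119), and 1 mg/kg on day 26 gave 0.031. The filter at the 60th percentile gave -0.024 for 1 mg/kg on day 8 (adjusted p = 0.0429) and 0.03 for 1 mg/kg on day 26. The last comparison also lost its call with a limit of 200 kb (0.026), an offset of 64 (0.016), quantile normalization (0.025) and the 101 genes brighter than the median gene alone (0.033), an alternative chosen after seeing the data. With each rat left out, the difference between doses on day 5 ran from -0.081 to -0.065, 1 mg/kg on day 8 from -0.023 to -0.013, 3 mg/kg on day 26 from 0.026 to 0.043 and 1 mg/kg on day 26 from 0.022 to 0.037. The cause of these changes was not tested. Signals near the filter limit the second Wwox and the dimmer Pde4d probe sets.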
